A study of Mus musculus with 8 samples.

Results

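The clustered replication-dependent histone genes supply the bulk of the histones that package newly made DNA. They were taken here as every gene in the deposited expression table whose symbol starts with Hist, a digit and h, and were sorted by symbol into the linker histone class H1 and the core histone classes H2a, H2b, H3 and H4. This gave 64 of the 16464 genes listed, with 5 in H1, 17 in H2a, 18 in H2b, 12 in H3 and 12 in H4. The group was selected on the differences in normalised read count between cast and naive libraries that are described below, so its values are given as a description and nothing is supported by a test of a histone gene. RNA was sequenced from the capsule at the back of the knee joint of wild-type C57BL/6 mice, male per the labels' protocols and 10 weeks old. A cast had kept the knee at 140 degrees for 2 weeks in the mice of 4 libraries, who were 8 weeks old when it was applied, and 4 libraries came from naive mice. The comparison asks how gene expression in the capsule differed after joint immobility. No label says that the libraries of a group came from separate animals, and p-values therefore reflect the spread between these samples alone, which may be technical.

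The genes of this family mostly lack introns, are transcribed mainly in S phase under the coactivator NPAT and its partner CASP8AP2 (FLASH), and mostly give mRNAs that end in a conserved stem-loop instead of a poly(A) tail. The stem-loop is bound by SLBP, and the U7 small nuclear ribonucleoprotein directs the cut just behind it. When DNA synthesis stops, these mRNAs are degraded, so their level is commonly used as a readout of cells in S phase. Replication-independent histone genes, by contrast, mostly contain introns or poly(A) signals, and many, though not all, are expressed throughout the cell cycle and in resting cells. Ribosomal RNA had been depleted from 200 ng of RNA per sample before library preparation, a method that does not select for poly(A) tails. In the annotation used here 5 of the 64 gene models have 2 exons (Hist1h2bc, Hist1h2be, Hist1h2bp, Hist1h2bq and Hist1h2br).

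The stem-loop consensus was found behind the coding part of 43 of the 64 gene models of GENCODE release M21 (67.2%). In other protein-coding genes a wider search, anywhere in any of their transcripts, found it in 23 of 21814 (0.105%). It is shown because it is what these genes share at the level of the transcript. Reference sequence is printed as DNA of the gene's own strand, 5′ to 3′, with the 16 bases of the stem-loop in capitals.
Hist1h2ag: caacaaaGGCTCTTTTCAGAGCCacc
Hist1h3c: aaaaaaaGGCTCTTTTAAGAGCCacc
Hist1h1c: tccaaaaGGCTCTTTTCAGAGCCacc
Hist1h4f: tctcaaaGGCCCTTTTCAGGGCCacc
Hist1h4d: aaccaaaGGCCCTTTTCAGGGCCact
Hist1h3g: ctttaaaGGCTCTTCTTAGAGCCacc
The capitals lie on chromosome 13 of build GRCm38 at 22042483 to 22042498 for Hist1h2ag and at 23739512 to 23739527 for Hist1h1c. The form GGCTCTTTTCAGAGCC was found in 25 members of all classes but H4, and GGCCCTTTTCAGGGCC in 6 members, all of them H4 genes. The pairs with equal capitals, Hist1h2ag with Hist1h1c and Hist1h4f with Hist1h4d, were chosen because their differences between the groups, given below, were far apart. Hist1h3g was the 1 member with its form. In 21 members no match was found, which says only that the consensus is not in the model used: 15 of these models end within 60 bases of the coding part.

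Promoters matched by gene ID in a RefSeq table (GRCm38.p6) were available for 58 members and were searched on both strands in the 250 bases before the start. The motifs were chosen after the sequences had been seen. CCAAT was present in 48 of the 58 (82.8%), against 34.5% of all 27025 RefSeq promoters. It stood in every H1, H2a and H2b promoter searched, in 8 of 10 H3 promoters and in 3 of 11 H4 promoters. TATAAA was present in 44.8%, against 12.97% of all promoters. The octamer ATTTGCAT, known in human H2B promoters as a site of the factor OCT1, was present in 6 of 17 H2a and 5 of 15 H2b promoters and in none of the H1, H3 and H4 promoters, against 1.61% of all promoters. AAACACA, an element known from H1 promoters, was present in 4 of 5 H1 promoters (6.22% of all). GGTCCG, part of an element described in H4 promoters, was present in 8 of 11 H4 promoters (6.82% of all). The 120 bases before the start are shown for an H1 pair and an H4 pair whose differences between the groups were unequal, for an H2b gene with the octamer and for an H3 gene with 3 CCAAT boxes. Capitals mark the motifs on either strand.
Hist1h1b: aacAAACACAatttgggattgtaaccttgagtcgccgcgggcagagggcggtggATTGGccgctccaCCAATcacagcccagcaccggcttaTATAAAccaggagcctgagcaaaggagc
Hist1h1c: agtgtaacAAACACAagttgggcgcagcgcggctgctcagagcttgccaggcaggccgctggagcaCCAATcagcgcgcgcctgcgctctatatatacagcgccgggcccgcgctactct
Hist1h4k: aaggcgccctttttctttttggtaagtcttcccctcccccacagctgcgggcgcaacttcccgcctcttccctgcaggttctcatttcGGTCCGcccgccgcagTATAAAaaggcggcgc
Hist1h4d: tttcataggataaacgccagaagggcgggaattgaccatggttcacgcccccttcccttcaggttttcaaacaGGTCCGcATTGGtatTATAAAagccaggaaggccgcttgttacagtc
Hist1h2bg: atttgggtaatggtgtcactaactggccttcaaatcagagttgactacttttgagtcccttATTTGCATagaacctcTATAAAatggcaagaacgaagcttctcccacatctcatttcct
Hist1h3c: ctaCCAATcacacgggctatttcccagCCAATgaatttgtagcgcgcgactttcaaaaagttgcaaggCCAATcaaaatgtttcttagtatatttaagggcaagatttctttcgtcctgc
These stretches are chr13:21780626-21780745 (minus strand), chr13:23738687-23738806 (plus), chr13:21750554-21750673 (minus), chr13:23581448-23581567 (plus), chr13:23571280-23571399 (plus) and chr13:23745522-23745641 (minus). A match describes letters and not a bound site.

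The deposited values are normalised read counts, in each library whole multiples of the value of 1 read. Recovered reads numbered 5956148 to 7381255 in the cast libraries and 1503880 to 6805349 in the naive libraries, of which naive library 4 was the shallowest. It had 2264 genes at 0, where the remaining naive libraries had 487 to 608, and its correlation with them across genes was 0.882 to 0.897 (log2 values, genes not being independent replicates). In the fit over all 15120 genes with a mean value of at least 0.5, run with limma on log2(value + 1), 984 genes were higher and 826 lower in cast capsules at a Benjamini-Hochberg adjusted p of at most 0.05, and the median difference of all genes was 0.0674. Capsule fibroblast markers such as Col1a1 and Dcn summed to 24002 to 34822 in cast libraries and 22704 to 37433 in naive libraries.

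Histone transcripts were more abundant in every cast library than in any naive library. Summed over the 64 genes, normalised read counts were 1588, 2429, 2642 and 1677 in cast libraries, against 1006, 827, 828 and 1203 in naive libraries. Cast libraries 2 and 3 lay highest, and the groups did not overlap. The mean sum was 2084 ± 530 in cast and 966 ± 179 in naive libraries (SD, n = 4 each), a ratio of 2.16. As a share of all reads listed, histone genes took 0.162, 0.245, 0.263 and 0.170% of the cast libraries and 0.0981, 0.0791, 0.0829 and 0.124% of the naive libraries, resting on 9634 to 19378 histone reads in cast and 1860 to 6675 in naive libraries. In bulk tissue, a greater number of cells that express a gene and more RNA per cell cannot be told apart.

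**Figure D1:**
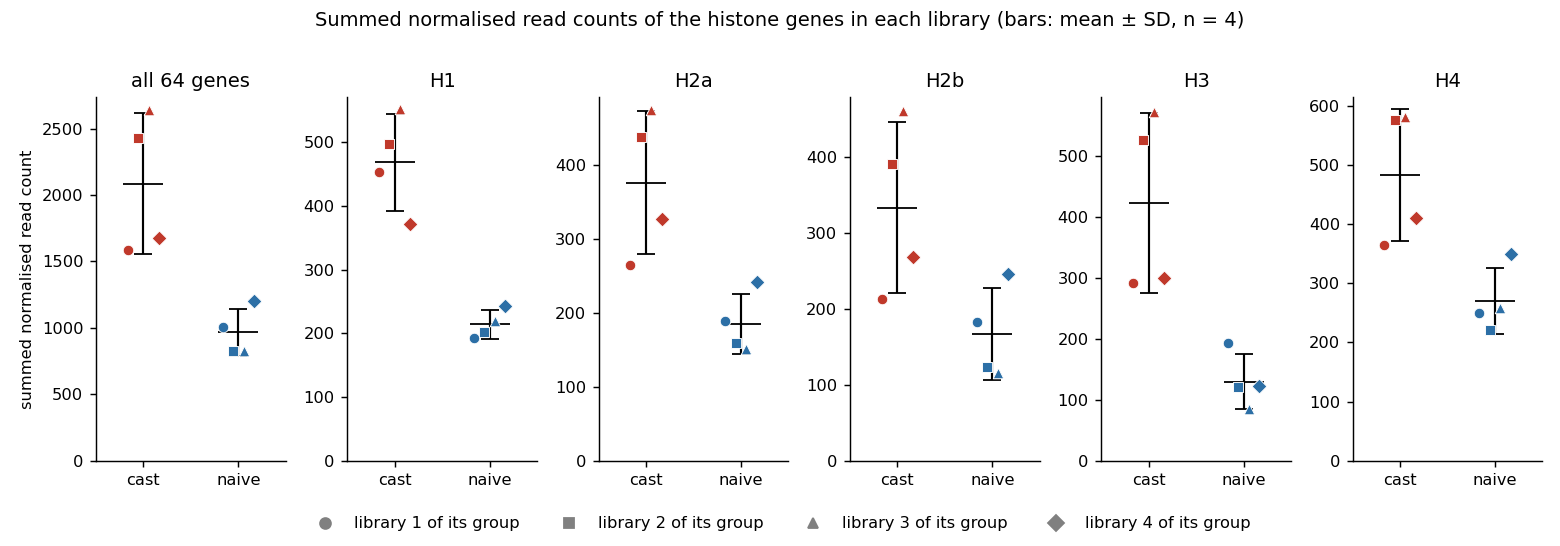
Summed normalised read count (y axis) of all 64 histone genes and of each class in the 4 cast and 4 naive libraries. Each point is 1 library, its shape gives the library number, and bars show the mean ± SD. All cast points lie above all naive points except in H2b, where cast library 1 (213) is below naive library 4 (246).

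All 64 genes passed the filter on low values. In 44 members every cast value was above every naive value, beside 11.1% of all genes, and in 0 every cast value was below every naive value, beside 9.39%. In 44 the difference was at least 1 on the log2 scale, beside 8.61%. A difference above 0 was seen in 61 members and in 55.7% of all genes. The median log2 difference was 1.44, with a range of -0.28 to 3.09. The highest value lay in cast library 3 for 37 members and in cast library 2 for 20. Over the fits that left out 1 library the median difference was 1.24 to 1.63. The fit over all genes marked 40 of the 64 as higher and 0 as lower, beside 6.51% of all genes tested marked higher and 5.46% lower. The choice of the members used this contrast, so nothing is read from that count, which went to 18 without cast library 3, 21 without cast library 2, 26 without naive library 2 and 27 without naive library 3.

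**Figure D2:**
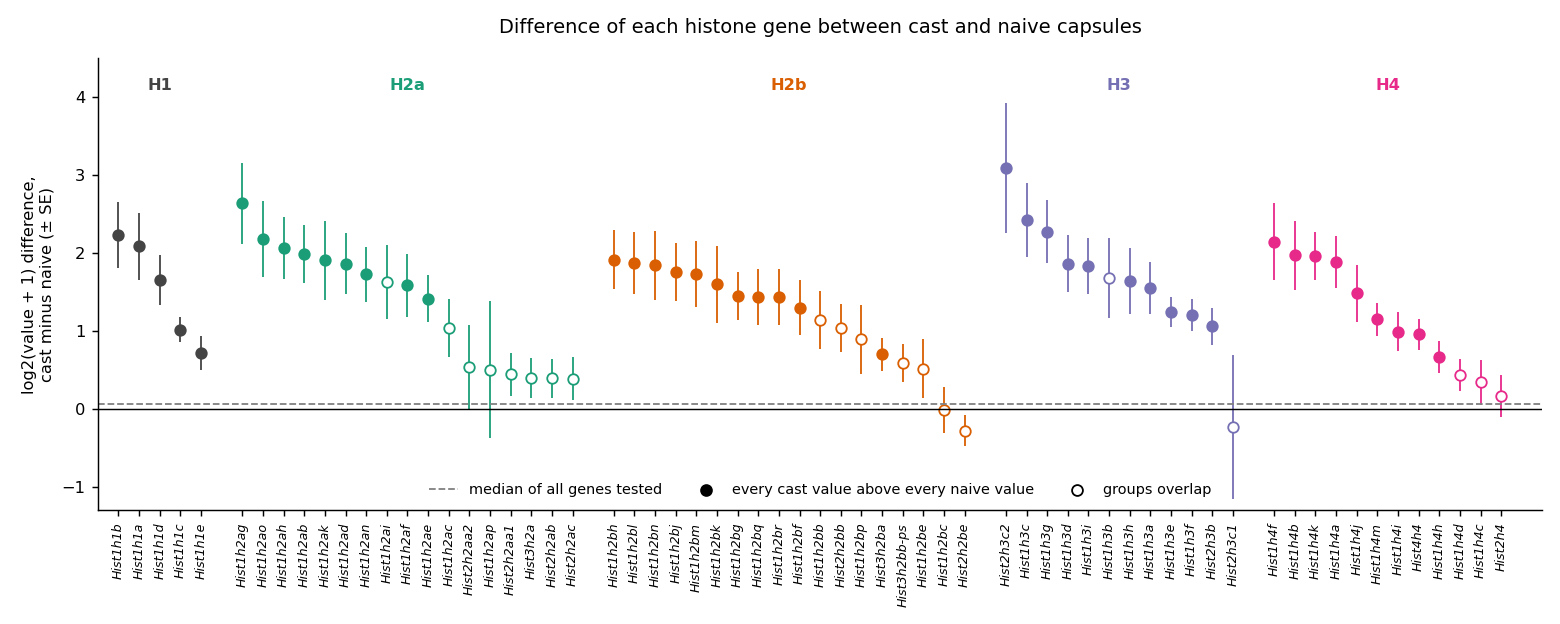
Difference in log2(value + 1) between cast and naive capsules (y axis, cast minus naive, with its standard error) for each of the 64 histone genes, ordered within class. In filled points every cast value was above every naive value, in open points the groups overlapped, and the dashed line is the median of all genes tested (0.0674). The values span -0.28 (Hist2h2be) to 3.09 (Hist2h3c2).

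Linker histone H1 binds the DNA that enters and leaves the nucleosome. The 5 H1 members together gave 453, 497, 552 and 371 in cast libraries, against 192, 202, 219 and 243 in naive libraries, so that every cast library was above every naive library and the ratio of means was 2.19. Hist1h1c (chromosome 13, 23738808 to 23740367, plus strand) was the most abundant histone gene of the cast libraries per kilobase of coding sequence, at 361 in cast and 179 in naive libraries. That measure divides all counts of a gene by its coding length alone. The model of Hist1h1c is 1560 bases long, of which 636 are coding, so this rank depends on the measure. Its normalised read counts were 242, 219, 246 and 210.5 in cast libraries, against 96.9, 103, 131 and 124 in naive libraries. The values were tight within groups and did not overlap, with a log2 difference of 1.02. Hist1h1b had 31.8, 53.7, 52.4 and 24.3 in cast libraries, against 14.3, 9.52, 2.81 and 7.12 in naive libraries, and the log2 difference was 2.23. Hist1h1a, in the second of the 2 blocks of histone genes on chromosome 13, had 25.2, 34.8, 39.8 and 12.8 in cast libraries, against 9.19, 5.16, 2.15 and 7.12 in naive libraries, with a log2 difference of 2.09. Both thus showed lower levels and larger differences than Hist1h1c. Hist1h1d, at 52.6, 73.1, 72.9 and 33.5 in cast libraries, against 21.1, 22.1, 9.59 and 18.1 in naive libraries, lay between them with a log2 difference of 1.65. For Hist1h1e the values were 101, 116, 141 and 90.02 in cast libraries, against 50.5, 62.1, 73.1 and 86.7 in naive libraries. Its log2 difference was 0.72, and its cast and naive ranges nearly touched at 90.02 in cast and 86.7 in naive libraries.

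H2A and H2B pair as dimers on the outer part of the nucleosome core. H2a members summed to 266, 438, 475 and 327 in cast libraries, against 189, 159, 151 and 242 in naive libraries, a ratio of means of 2.03. In 9 of the 17 every cast value was above every naive value, beside 11.1% of all genes. The most abundant member, Hist2h2aa1 on chromosome 3, gave 76.97, 149, 150.3 and 150.2 in cast libraries, against 72.2, 80.8, 95.7 and 135 in naive libraries, the groups overlapped, and the log2 difference was 0.44. Hist2h2aa2 has an identical coding sequence and was at 0 in 1 cast and 3 naive libraries, so how reads were divided between both copies is uncertain. Their sum had a ratio of means of 1.38. Without Hist2h2aa1 the H2a log2 ratio was 1.45 in place of 1.02. Differences were larger in several less abundant members. Hist1h2ag had 17.5, 29.8, 24.3 and 13.2 in cast libraries, against 9.34, 2.42, 1.32 and 0.647 in naive libraries, with a log2 difference of 2.64 that went to 1.69 when 5 in place of 1 was added before the log. Hist1h2ao, also in the first block on chromosome 13, had 29.8, 49.2, 48.9 and 20.1 in cast libraries, against 14.9, 5.81, 2.15 and 10.3 in naive libraries. The coding sequences of Hist1h2ad, Hist1h2ae, Hist1h2ag, Hist1h2ao and Hist1h2ap are at least 99% identical within a chain of pairs, so their sum is safer than any 1 of them. That sum was 75.6, 117, 127 and 58.4 in cast libraries, against 42.9, 20.6, 8.27 and 18.1 in naive libraries, a ratio of means of 4.21 with no overlap. Hist3h2a on chromosome 11 had 21.6, 27.4, 28.5 and 26.8 in cast libraries, against 18.1, 15.6, 14.9 and 33.6 in naive libraries, where naive library 4 was the highest of all 8. The 13 H2a members other than Hist2h2aa1, Hist1h2ag, Hist1h2ao and Hist3h2a spanned log2 differences of 0.39 to 2.06.

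H2b members summed to 213, 391, 461 and 269 in cast libraries, against 183, 124, 115 and 246 in naive libraries, a ratio of means of 2.00, with the sum of cast library 1 below that of naive library 4. In 11 of the 18 every cast value was above every naive value, beside 11.1% of all genes. Hist1h2bc and Hist1h2be, 2 of the 3 members with the highest means, had overlapping groups. Hist1h2bc had 26.7, 46.01, 68.99 and 43.2 in cast libraries, against 41.3, 37.3, 36.9 and 67.3 in naive libraries, with full overlap and a log2 difference of -0.01. Its direction turned with the setting, to 0.22 without cast library 1 and 0.18 without naive library 4. Hist1h2be had 26.7, 38.4, 57.9 and 37.9 in cast libraries, against 27.1, 14.5, 23.1 and 55.6 in naive libraries, and naive library 4 exceeded 3 of the 4 cast libraries. Hist2h2bb on chromosome 3 had 34.8, 56.8, 73.9 and 43.7 in cast libraries, against 25.6, 15.5, 21.5 and 38.8 in naive libraries, a log2 difference of 1.04. Hist2h2be was the member with the lowest difference, -0.28, at 8.24, 6.89, 5.999 and 8.14 in cast libraries, against 10.7, 9.68, 7.61 and 8.41 in naive libraries. The gene with the octamer and TATAAA shown above, Hist1h2bg, had 20.8, 37.02, 43.2 and 27.3 in cast libraries, against 15.4, 7.90, 7.44 and 14.2 in naive libraries, with a log2 difference of 1.45. Hist1h2bq and Hist1h2br have identical coding sequences and identical values in all 8 libraries, so they stand for 1 measurement, with a ratio of means of 3.65. The 13 H2b members other than Hist1h2bc, Hist1h2be, Hist1h2bk, Hist2h2bb and Hist2h2be ran from 0.59 to 1.92.

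H3 and H4 form the tetramer at the centre of the nucleosome. H3 showed the largest ratio of the 5 classes. Its 12 members summed to 292, 527, 573 and 301 in cast libraries, against 193, 121, 84.99 and 122 in naive libraries, a ratio of means of 3.25 with no overlap. In 10 of 12 members every cast value was above every naive value, beside 11.1% of all genes. Leaving out single libraries kept the log2 ratio of the H3 sums between 1.52 and 1.95, against 0.74 to 0.99 for H4. Hist1h3c had 35.4, 68.9, 67.4 and 29.6 in cast libraries, against 19.4, 9.20, 3.14 and 6.47 in naive libraries, a log2 difference of 2.42. Hist1h3g, at lower counts, had 6.92, 22.5, 17.998 and 10.4 in cast libraries, against 3.92, 1.77, 0.827 and 1.94 in naive libraries, a log2 difference of 2.28. In both genes cast libraries 2 and 3 stood above cast libraries 1 and 4, and naive library 1 was the highest naive library. Hist1h3f had 42.03, 52.8, 69.4 and 43.1 in cast libraries, against 22.5, 18.1, 20.5 and 25.2 in naive libraries, a smaller difference of 1.21 with tighter groups.

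On chromosome 3, Hist2h3b and Hist2h3c2 have coding sequences that are 99.75% identical. Hist2h3c2 had 34.3, 94.9, 90.3 and 42.8 in cast libraries, against 27.3, 11.6, 0.165 and 5.17 in naive libraries, the largest log2 difference of any member (3.09). Hist2h3b had 35.1, 56.5, 65.9 and 39.6 in cast libraries, against 27.9, 19.4, 18.4 and 25.2 in naive libraries. Summed, both copies gave 69.4, 151, 156 and 82.4 in cast libraries, against 55.2, 30.97, 18.5 and 30.4 in naive libraries, a ratio of means of 3.40 with no overlap. Hist2h3c1 was not compared for identity, because its annotated coding part is 543 bases long, against 408 in Hist2h3b and Hist2h3c2. It was at 0 in 2 cast and 2 naive libraries and reached 5.11 in cast and 9.52 in naive libraries. Its log2 difference was -0.24 and was positive without cast library 3 (0.19), cast library 4 (0.19), naive library 2 (0.40) or naive library 3 (0.14). Summed with Hist2h3c2 it gave a ratio of means of 4.62, and with both Hist2h3b and Hist2h3c2 a ratio of 3.13. How reads were divided between these 3 genes is uncertain. On chromosome 13, Hist1h3g, Hist1h3h and Hist1h3i form a further group of near-identical copies, with a summed ratio of 3.86.

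H4 had the smallest ratio, 1.79, although no naive library reached a cast library. Its 12 members summed to 365, 576, 581 and 409 in cast libraries, against 249, 221, 258 and 349.9 in naive libraries. In 9 of them every cast value was above every naive value, beside 11.1% of all genes. Hist1h4d, Hist1h4h and Hist1h4m had the highest means. Hist1h4d had 76.5, 109, 109 and 90.8 in cast libraries, against 68.9, 52.8, 73.2 and 92.5 in naive libraries, with naive library 4 above cast libraries 1 and 4 and a log2 difference of 0.43. Hist1h4h had 59.3, 82.4, 76.6 and 67.1 in cast libraries, against 39.3, 33.9, 49.3 and 58.9 in naive libraries, separate by less than 1 unit. Hist1h4m had 48.5, 84.8, 87.4 and 58.4 in cast libraries, against 30.4, 29.5, 27.6 and 32.3 in naive libraries, with naive values in a narrow band and a log2 difference of 1.15. Hist1h4k, whose promoter with GGTCCG and TATAAA is printed above beside that of Hist1h4d, had 24.6, 47.4, 38.04 and 17.9 in cast libraries, against 6.03, 8.39, 5.29 and 8.41 in naive libraries, a log2 difference of 1.97. Hist1h4f, which shares its stem-loop letters with Hist1h4d, had 21.6, 34.6, 41.04 and 20.1 in cast libraries, against 15.4, 7.58, 3.47 and 1.94 in naive libraries, a log2 difference of 2.15. Hist2h4 on chromosome 3 had 26.9, 50.7, 42.5 and 38.9 in cast libraries, against 26.1, 30.3, 31.9 and 55.6 in naive libraries, overlapping groups and the lowest difference of the class (0.17).

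The mix of classes differed as well. H3 made up 18.4, 21.7, 21.7 and 17.9% of the histone sum in cast libraries and 19.1, 14.6, 10.3 and 10.2% in naive libraries, a mean of 19.9 ± 2.05% against 13.5 ± 4.27% (SD, n = 4 each). Naive library 1, at 19.1%, lay within the cast range. H4 made up 23.0, 23.7, 21.99 and 24.4% in cast libraries and 24.8, 26.8, 31.2 and 29.1% in naive libraries, with no overlap. H1 held 23.0 ± 3.74% in cast and 22.5 ± 3.47% in naive libraries. For H2a the shares were 18.1 ± 1.13% in cast and 19.1 ± 0.789% in naive libraries, and for H2b 15.7 ± 1.68% and 16.9 ± 3.02%, differences smaller than the larger SD of each class.

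**Figure D3:**
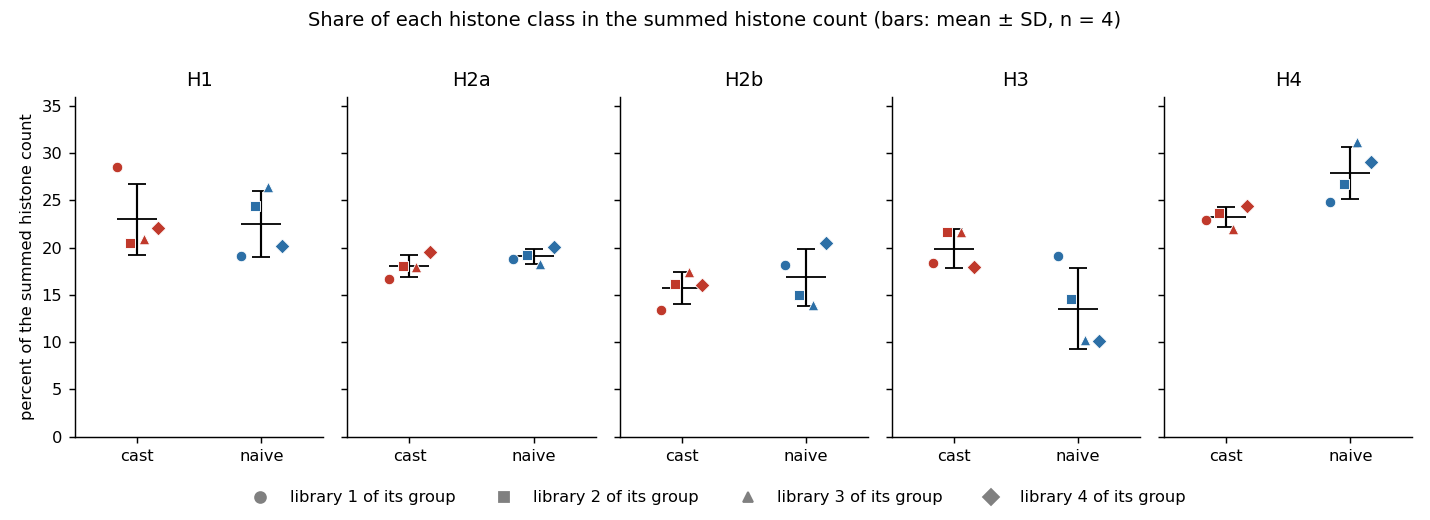
Share of each histone class in the summed histone count (y axis, percent) in cast and naive libraries. Each point is 1 library and bars show the mean ± SD. H3 averages 19.9% in cast and 13.5% in naive libraries, and H4 23.3% and 28.0%.

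By position, the genes of chromosome 13 accounted for most of the difference in the summed counts. The first block, of 22 members, had a median log2 difference of 1.73, and its sums were 314, 598, 598 and 301 in cast libraries, against 172, 122, 67.1 and 144 in naive libraries, a ratio of means of 3.59. In the second block, of 28 members, the median was 1.499, and sums were 993, 1332, 1522 and 969 in cast libraries, against 601, 484, 531 and 719.9 in naive libraries, a ratio of 2.06. The 10 genes on chromosome 3 had a median of 0.42 and a ratio of 1.68. Their sums were 235, 446, 461 and 351 in cast libraries, against 204, 194, 199 and 289 in naive libraries, so that cast library 1 lay below naive library 4. The 3 genes on chromosome 11 had a median of 0.59. Hist4h4, alone on chromosome 6, had 23.6, 22.9, 29.2 and 26.1 in cast libraries, against 9.95, 10.97, 15.4 and 14.9 in naive libraries, with a log2 difference of 0.96.

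Genes whose annotated transcript end was long had a lower median difference than those whose end was short, with wide overlap between both sets. Models were divided by whether they run on for at least 200 bases behind the stem-loop, a limit chosen after the values had been seen. The 18 genes with such a long end had a median log2 difference of 1.004, and their sums were 909 ± 158 in cast and 489 ± 94.2 in naive libraries, a ratio of 1.86. The 25 genes with a short end had a median of 1.60, with sums of 710 ± 219 in cast and 294.5 ± 53.7 in naive libraries, a ratio of 2.41. Within classes the medians ran in the same order, at 0.69 for 6 long and 1.89 for 5 short H4 ends, 1.25 for 5 long and 1.98 for 4 short H3 ends, 1.22 for 2 long and 1.45 for 7 short H2b ends, and 0.72 for 2 long and 1.42 for 9 short H2a ends. Differences of long-ended genes ran from -0.24 to 3.09 and those of short-ended genes from 0.39 to 2.64. The long-ended Hist2h3c2 (3.09), Hist1h2bh (1.92), Hist1h3d (1.87) and Hist1h1d (1.65) lay above the short-ended median, and the short-ended Hist2h2ac (0.39), Hist2h2aa1 (0.44), Hist1h2ap (0.50), Hist2h2aa2 (0.54), Hist1h4h (0.66) and Hist3h2ba (0.70) lay below the long-ended one. Long-ended genes held 44.3 ± 4.11% of the histone sum in cast and 50.8 ± 4.91% in naive libraries, ranges that overlapped. H1 had no short-ended member to compare. The annotation the authors counted against is not given in the sources used here.

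**Figure D4:**
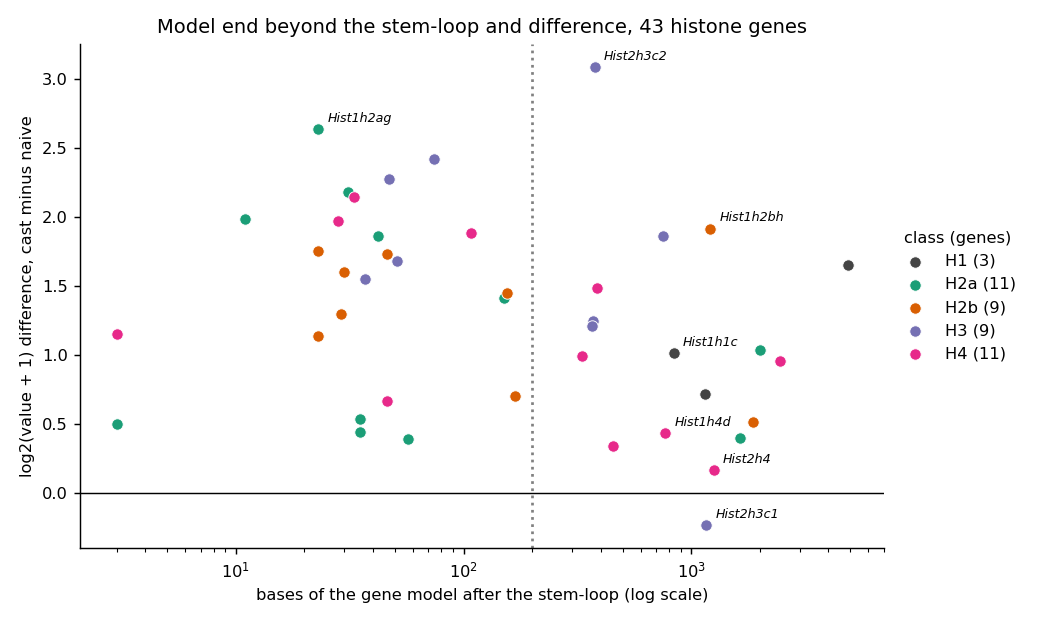
Log2 difference (y axis, cast minus naive) against the number of bases of the gene model behind the stem-loop (x axis, log scale) for the 43 histone genes with a stem-loop match, coloured by class. The dotted line marks 200 bases. Genes to its left have a median of 1.60 and those to its right 1.004, with Hist2h3c2 (3.09) standing apart on the right.

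Members whose human counterparts are known to give poly(A)-tailed mRNA as well were looked at as a list. The 4 in the table were Hist1h1c, Hist1h2bc, Hist1h2bk and Hist2h2be, with a median log2 difference of 0.50. Hist1h2bk had 11.9, 30.9, 28.6 and 13.7 in cast libraries, against 10.2, 5.65, 1.65 and 9.70 in naive libraries, with groups that did not overlap (log2 difference 1.60). Hist1h2bc and Hist2h2be were 2 of the 3 members with a difference below 0, and neither had a stem-loop match in its model.

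Genes of the machinery that makes and degrades histone mRNA did not pass the test by limma. Of 20 tested genes of histone transcription and 3′ processing, 0 were called in either direction by limma, 3 had an unadjusted p under 0.05, all of them higher in cast, and edgeR and DESeq2 called 1 each. The median log2 difference was 0.19, beside 0.0674 for all genes. Slbp, which binds the stem-loop, had 18.6, 26.7, 26.04 and 22.01 in cast libraries, against 28.5, 15.97, 23.8 and 7.76 in naive libraries (log2 difference 0.41 ± 0.35 SE, limma adjusted p = 0.506). Npat had 59.002, 39.3, 46.5 and 46.8 in cast libraries, against 42.2, 43.4, 38.03 and 8.41 in naive libraries, where naive library 4 was far below the rest (limma adjusted p = 0.346). For Casp8ap2 the limma adjusted p was 0.325, and naive library 4 was again the lowest (7.76, against 33.1 to 49.1 in the remaining naive libraries). Snrpe, an Sm protein of spliceosomal and U7 particles, came closest, with 21.1, 25.03, 31.2 and 31.1 in cast libraries, against 17.9, 12.1, 15.7 and 5.82 in naive libraries, a log2 difference of 1.10 and an adjusted p of 0.052 by limma that passed without naive library 1 (0.042) or naive library 4 (0.0237). With all 8 libraries it passed by edgeR (adjusted p = 0.0439) and DESeq2 (adjusted p = 0.00821). Zfp473, the mouse gene of a U7-associated zinc finger protein, had 0.896 in cast and 0.116 in naive libraries on average (limma adjusted p = 0.0576, and 0.0333 with no filter on low values), and Snrpf had 21.3 ± 5.42 in cast and 13.9 ± 3.27 in naive libraries (limma adjusted p = 0.163). Of 14 genes of histone mRNA decay, 0 were called by limma, edgeR or DESeq2, 0 had an unadjusted p under 0.05, and the median was 0.34. Upf1, the helicase that SLBP recruits for decay, had 89.2, 100.3, 95.4 and 75.6 in cast libraries, against 107, 119.9, 93.1 and 151 in naive libraries, with a log2 difference of -0.36 (limma adjusted p = 0.25). Upf2 (0.60) and Pnrc2 (0.88) had adjusted p values of 0.23 and 0.242 by limma.

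Histone chaperones carry new histones to DNA. Of 22 tested genes of histone chaperones and of the acetylation of new histones, 4 rose in cast capsules and 0 fell. Their median log2 difference was 0.36. For short, the genes of this list are called chaperones below. Over all genes tested, 6.51% were called higher and 5.46% lower. Asf1b, the proliferation-linked carrier of H3 and H4, had 4.78, 11.4, 5.86 and 4.27 in cast libraries, against 2.26, 1.45, 1.16 and 0.647 in naive libraries, a log2 difference of 1.63 (limma adjusted p = 0.0126). Chaf1b, a subunit of the chromatin assembly factor that deposits H3 and H4 behind the fork, rose by 1.31 (limma adjusted p = 0.0161). Its partner Chaf1a had 18.3, 13.3, 12.7 and 8.94 in cast libraries, against 6.33, 8.39, 4.63 and 6.47 in naive libraries, a log2 difference of 0.93 (limma adjusted p = 0.0444). Mms22l, which works in a complex with Tonsl, was the fourth, with a log2 difference of 1.88 (limma adjusted p = 0.0371). These counts were small and leaned on single libraries: 2 were called without cast library 1 or cast library 2, and 1 without cast library 3, naive library 2 or naive library 3. Chaf1b had a limma adjusted p of 0.0507 to 0.0578 without cast library 3, naive library 2 or naive library 3. Mms22l had 0.0514 to 0.109 without any 1 of cast libraries 1 to 3 or naive libraries 2 and 3, and Chaf1a 0.0589 to 0.118 without any 1 of cast libraries 1 to 3 or naive libraries 1 to 3.

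Replication-independent histone genes are not members. All 11 tested had a positive difference, with a median log2 difference of 0.68, and 4 rose. Over all genes tested, 55.7% had a positive difference and 6.51% were called higher. H3f3b, a gene of the replacement H3 variant, had 343, 349, 421 and 394 in cast libraries, against 225, 233, 263 and 215 in naive libraries, a log2 difference of 0.68 (limma adjusted p = 0.0219). H2afz, of an H2A variant found at promoters, rose by 0.82 (limma adjusted p = 0.0366), and Cenpa, the centromeric H3, rose by 1.19 (limma adjusted p = 0.0267). H2afx, of the H2A variant that is phosphorylated at DNA breaks, had 18.6, 32.4, 22.5 and 10.4 in cast libraries, against 9.04, 10.002, 6.12 and 10.996 in naive libraries, a log2 difference of 1.05 that was not called (limma adjusted p = 0.0659). It passed without cast library 4 (0.0214) and without naive library 4 (0.0433), and with all 8 libraries by edgeR (adjusted p = 0.0349) and DESeq2 (adjusted p = 0.00939). H1f0, the linker histone of resting cells, had 129.6 ± 24.3 in cast and 109.6 ± 11.3 in naive libraries (SD, n = 4 each) (limma adjusted p = 0.486). For H3f3b the limma adjusted p was 0.0584 to 0.0769 without cast library 3, naive library 1 or naive library 2. For H2afz it was 0.0553 to 0.112 without any 1 of cast libraries 2 to 4 or naive libraries 2 and 3, and for Cenpa 0.0592 to 0.0827 without any 1 of cast libraries 1 to 3 or naive libraries 2 and 3. The count of 4 went to 1 without cast library 2, 0 without cast library 3, 2 without naive library 1, 0 without naive library 2 and 1 without naive library 3.

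Part of the genes of DNA replication and mitosis rose in the same comparison. Over all genes tested, 6.51% were called higher, 5.46% were called lower and 55.7% had a positive difference. Of 45 replication genes 12 rose and 0 fell, with a median log2 difference of 0.85 and a positive difference in 44. Timeless, a component of the fork protection complex, had 15.7, 20.4, 23.997 and 20.9 in cast libraries, against 8.74, 6.61, 6.12 and 9.70 in naive libraries, a log2 difference of 1.28 (limma adjusted p = 0.00611) that passed in every leave-one-out fit. Dbf4, the activator of the kinase that fires origins, rose by 1.71 (limma adjusted p = 0.0175) and Rfc3, of the clamp loader, by 1.12 (limma adjusted p = 0.0203). Pcna, the sliding clamp, had 46.1, 53.2, 65.04 and 54.7 in cast libraries, against 45.96, 31.8, 47.6 and 20.7 in naive libraries and was not called (log2 difference 0.63, limma adjusted p = 0.161). Mcm5, of the replicative helicase, and Rrm2, of ribonucleotide reductase, had differences of 1.19 and 1.53 and missed the threshold by limma (adjusted p = 0.0528 for Mcm5 and 0.0542 for Rrm2). On recovered reads of all 8 libraries both passed, Mcm5 with adjusted p = 0.0416 by edgeR and 0.0102 by DESeq2, and Rrm2 with 0.0402 by edgeR and 0.00564 by DESeq2. Of 19 genes of the G1 to S transition, 2 rose and 2 fell, which is not far from the shares over all genes. Ccna2, the S phase cyclin, rose by 2.53 (limma adjusted p = 0.0317) and Ccne1 by 1.10 (limma adjusted p = 0.0326), while Ccnd2, a G1 cyclin, had 101, 202, 193 and 169 in cast libraries, against 349, 361, 343 and 265 in naive libraries and a log2 difference of -1.02 (limma adjusted p = 0.0234). The other gene that fell, Cdkn1a, had 68.6, 14.5, 24.0 and 28.8 in cast libraries, against 87.5, 75.3, 64.6 and 122 in naive libraries. Its groups overlapped, and its log2 difference was -1.52 (limma adjusted p = 0.0399). Of 20 mitosis genes 14 rose and 0 fell, with a median log2 difference of 1.80. Bub1b, of the spindle checkpoint, had 16.2, 19.9, 20.7 and 12.003 in cast libraries, against 5.88, 4.36, 2.48 and 4.53 in naive libraries, a log2 difference of 1.79 (limma adjusted p = 0.00352). Birc5 and Aurka, of the chromosomal passenger complex and the spindle, rose by 1.87 and 1.56 (limma adjusted p = 0.0152 and 0.0157). Calls here again moved with single libraries. The limma adjusted p was 0.0504 to 0.0626 for Rfc3 without cast library 3, naive library 2 or naive library 3, and 0.0525 for Birc5 without cast library 3. For Ccnd2 it was 0.0567 to 0.0697 without any 1 of naive libraries 1 to 3, for Ccna2 0.0721 to 0.0907 without any 1 of cast libraries 1 to 3 or naive library 3, and for Ccne1 0.057 to 0.101 without any 1 of cast libraries 1 to 3 or naive libraries 2 and 3. Mcm5 passed without cast library 4 (0.0248), and Rrm2 without cast library 4 (0.0154) or naive library 1 (0.0396). Replication calls went to 7, 3 and 2 without cast library 1, 2 or 3, to 2 and 3 without naive library 2 or 3, and to 18 without naive library 4. Mitosis calls went to 3, 3 and 2 without cast library 1, 2 or 3, and to 4 and 3 without naive library 2 or 3. G1 to S calls went to 0 without cast library 1, 2 or 3 or naive library 3, to 1 without naive library 2, to 4 without cast library 4 and to 3 without naive library 1 or 4.

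Library by library the histone sum and these lists were not ordered alike. The mean log2 level of the replication list was 3.69, 3.89, 4.05 and 3.55 in cast libraries 1 to 4, against 3.27, 3.02, 2.97 and 2.66 in naive libraries 1 to 4. That of the mitosis list was 3.82, 4.16, 3.90 and 2.77 in cast libraries, against 2.84, 2.16, 1.37 and 1.13 in naive libraries. Cast library 4 thus had a mitosis level just under that of naive library 1, while its histone sum (1677) was above that of cast library 1 (1588) and of every naive library. Naive library 4 had the lowest level in both lists and the highest histone sum of the naive group (1203). It was also the shallowest library, with 1 read worth 0.647 and 2264 genes at 0. Whether depth or another trait of this library lowered its list levels was not tested.

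Markers of neutrophils and erythroid cells were higher in cast libraries. Over all genes tested, 6.51% were called higher and 5.46% lower. All 6 neutrophil markers rose, with sums of 1469, 5411, 582 and 777 in cast libraries and 18.1, 46.1, 11.9 and 47.9 in naive libraries. All 7 erythroid markers listed rose, with sums of 14973, 7963, 28182 and 5745 in cast libraries and 1681, 2247, 1647 and 2775 in naive libraries, so that cast library 3 was highest both here and in the histone sum. The 5 markers of marrow granulocyte precursors, cells that divide, summed to 97.9, 262, 8.18 and 12.5 in cast libraries and 6.63, 6.13, 3.64 and 12.3 in naive libraries. Of these markers 1 was called higher by limma. Without cast libraries 1 and 2, which had the highest precursor sums, the ratio of the mean histone sums was 2.24 and the median difference of members 1.53, beside 2.16 and 1.44 with all 4 cast libraries. Members called higher by limma then went from 40 to 7. Cast library 3, with the highest erythroid sum, stayed in, so these values do not separate the histone sum from blood cell RNA. Skeletal muscle markers summed to 6.89 to 245 in cast and 75.7 to 1869 in naive libraries, with 3 of 5 lower by limma, and 2 of 4 fat markers were lower. Of T cell markers 2 of 3 tested rose, 1 of 6 fibroblast markers rose, and 0 of 5 macrophage, 0 of 4 endothelial and 0 of 4 B and plasma cell markers were called. The part of neutrophil, erythroid, granulocyte precursor, T cell, muscle and fat RNA in the histone differences was not tested.

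**Figure D5:**
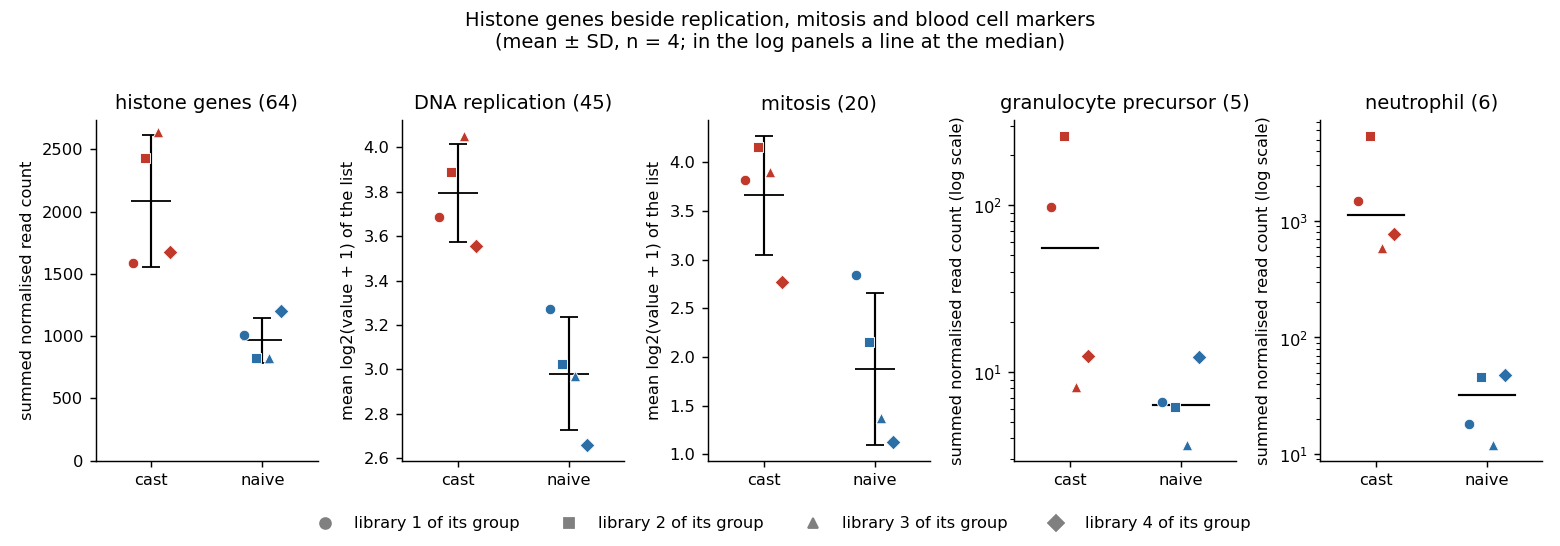
The summed normalised read count of the 64 histone genes, the mean log2(value + 1) of the DNA replication and mitosis lists, and the summed counts of granulocyte precursor and neutrophil markers (log scale) in each cast and naive library. Bars show the mean ± SD, or a line the median in the log panels. The precursor sums are 97.9, 262, 8.18 and 12.5 in cast libraries 1 to 4 and 3.64 to 12.3 in naive libraries, and the histone sums are 1588 to 2642 in cast and 827 to 1203 in naive libraries.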

How the data were processed

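The authors deposited 1 table of normalised read counts (signal values) for 16464 genes in 8 libraries. Per the labels' protocols, Trizol RNA was depleted of ribosomal RNA and made into directional libraries, which a DNBSEQ-G400 read as pairs of 150 nt. The protocol names Trimmomatic 0.38 and the human build hg38, whereas mm10 and Trimmomatic 0.36, with RSEM, Bowtie2 and edgeR, stand in the submitters' processing notes. The gene symbols deposited are mouse ones, and the conflict was not settled. Whether strand was used in counting is not given in the sources used here. RSEM divides reads between similar transcripts, so counts of single copies of near-identical genes are uncertain and sums are given beside them.

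Every deposited value was a whole multiple of its library's smallest step within 0.01 (100% of values), which gave recovered reads. Values were taken to log2 after adding 1, the 15120 genes whose mean reached 0.5 were kept, and 4 cast were compared with 4 naive libraries by limma-trend with Benjamini-Hochberg adjustment at 0.05, after a test on simulated data. Fold changes understate the change of low genes on this scale. Alternatives were a filter of 2.5 or none, a pseudocount of 0.5 or 5, median-of-ratios and quantile scaling, a replicate block, edgeR and DESeq2 on recovered reads, each library left out, and cast libraries 1 and 2 left out together. Gene models, coordinates and coding identity came from GENCODE M21 (GRCm38) and promoters from RefSeq (GRCm38.p6). Near-identical copies were pairs of a class with equal coding length and coding identity of at least 99%. Pairs of unequal length were not compared.

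The members and lists were chosen with earlier results of these data known. Named members were all H1 genes, the 3 with the highest mean in each other class, the 4 highest and 4 lowest differences among those with a group mean of at least 2.5, and those with poly(A)-tailed human counterparts. From each list of other genes the 3 with the smallest p were named, with a panel of 12 genes whatever their test. Hist1h2bg, Hist1h2bh, Hist1h3d, Hist1h4f, Hist1h4k, Hist2h2ac, Hist3h2ba, Hist4h4, the genes with 2 exons and the copies of named genes were added after their values had been seen. The same holds for Cdkn1a. The fits used limma 3.58.1, DESeq2 1.42.0 and edgeR 4.0.16 in R 4.3.3, with matplotlib 3.10.9, numpy 2.4.6 and pandas 2.3.3 in Python 3.11.15 for the rest. SDs and SEs reflect the spread among the libraries of a group, and raw reads were not used here.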

Additional observations from a re-analysis of the deposited data

Results flagged for a closer look

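Of 134 groups of 4 libraries checked, 5 held a library whose gap to the nearest other was a large part of the group's range (above Dixon's critical value for 4 samples), and chance gives about 1 in 20. Hist2h2aa1 was at 77.0 in cast library 1, against 149 to 150.3 in the other cast libraries. Naive library 4, the shallowest, held 3 of the 5. Hist3h2a was at 33.6 there, against 14.9 to 18.1 in naive libraries 1 to 3, and Hist1h2bc at 67.3, against 36.9 to 41.3. Npat was at 8.41 there, against 38.0 to 43.4. Rfc3 was at 13.9 in cast library 3, against 6.94 to 7.42 in the other cast libraries.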

How the results depend on the processing

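Leaving out each library in turn gave 512 to 1384 genes higher and 408 to 1288 lower in cast capsules (984 and 826 with all), 18 to 50 histone genes higher (40 with all), and among the lists 0 to 1 genes of histone mRNA processing, 1 to 5 chaperones, 0 to 5 replication-independent histones, 2 to 18 replication, 0 to 4 G1 to S and 2 to 17 mitosis genes. Without cast libraries 1 and 2 together these counts were 373, 342 and 7 for all genes and histone genes, and in the lists 0 chaperones, 0 replication-independent histones, 1 replication, 0 G1 to S and 1 mitosis gene. Fewer libraries enter those fits. DESeq2 called 1290 genes lower, 21 replication and 4 G1 to S genes, and 1 processing gene was called with DESeq2, edgeR, no filter, either other pseudocount or quantile scaling. Quantile scaling left 2 replication-independent histones, 6 replication and 1 G1 to S gene, and the filter of 2.5 left 1 G1 to S gene. The median of members gave log2 ratios of 1.44 for all histones, 1.65 for H1 and 1.59 for H2a in place of 1.11, 1.13 and 1.02 from sums, and H2a without its most abundant member gave 1.45. Hist1h2bc turned positive with DESeq2 (0.023), edgeR (0.054), without cast library 1 (0.22), cast libraries 1 and 2 (0.30) or naive library 4 (0.18), and ranged from -0.23 to 0.22 with 1 library left out. Hist2h3c1 turned positive without cast library 3 or 4 (0.19 each), naive library 2 (0.40) or naive library 3 (0.14), within a range of -0.74 to 0.40. No sign was seen that replicate numbers pair the samples. Same-numbered libraries had correlations of deviations of 0.08, 0.04, -0.06 and -0.02, and 0 of 4 cast libraries correlated best with their own number. So few libraries cannot exclude a pairing. With the replicate block 26 histone genes, 0 replication-independent histones and 7 replication genes were called. In 252 cases a count of calls, a class ratio or a class share stayed near its value in the main comparison. Counts were clearly lower in 50 cases and higher in 13, and 4 ratios or shares moved by at least 1 SD. Where not stated, the cause was not tested. Depth was lowest in naive library 4, with 1860 histone reads, and up to 17 members had values under 1 in a library.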
